A study of Homo sapiens with 6 samples.

Results

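The genes described here are the well-expressed human zinc finger genes that carry a ZNF name. They were chosen by name and by measured level: each symbol is ZNF, a number and at most 1 final letter, and the mean level over all 6 libraries is at least 10 CPM (counts per 1000000 counts of the library). The pooled level thus selected the members, and levels are given below as a description. By rule, ZNF433, ZNF442, ZNF844, ZNF799, ZNF443, ZNF709, ZNF44, ZNF563, ZNF136 and ZNF20 were left out. Of 17534 genes in the table, 500 carried such a ZNF name and 300 of those reached 10 CPM. Of the 10 left-out genes, 7 were among these 300, which leaves 293 members, or 58.6% of all ZNF rows.

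The 6 RNA-seq libraries came from NCI-H1703, an established human cell line labelled as lung squamous cell carcinoma. In 3 libraries the cells carried a short hairpin RNA (shRNA) against PPM1G, with the genotype label Sh-PPM1G. The 3 control libraries have the genotype label Sh-NC, although the study's title and design speak of wild-type cells. Cells of both kinds were grown in flasks and harvested with trypsin. The comparison asks how transcript levels differ when PPM1G, a nuclear phosphatase that removes phosphate from serine and threonine, is knocked down. The number of hairpins and of clones is not given in the sources used here, and whether each library had its own culture is not stated either, so the p-values cover the spread between these 6 libraries, which may be technical.

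Most ZNF proteins carry arrays of C2H2 zinc fingers, short loops held by a zinc ion, each of which can contact a few bases of DNA. The largest class adds a KRAB domain at the amino end, which recruits the co-repressor TRIM28 and, through it, enzymes that place the repressive H3K9 methyl mark, often on transposable elements. KRAB genes lie in clusters made by repeated local duplication, many of them on chromosome 19, so that neighbours share much of their sequence. Other ZNF proteins carry a SCAN domain, belong to chromatin complexes, or bind RNA and ribosomes.

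CPM values are scaled by TMM factors, edgeR's correction of library sizes, unless said otherwise. PPM1G itself had 182, 194 and 188 CPM in the PPM1G shRNA libraries, against 333, 308 and 324 CPM in the control libraries. The groups did not overlap, and the log2 fold change of PPM1G was -0.77 (SE 0.03, adjusted p = 3.35e-20, edgeR's quasi-likelihood test). Library totals ranged from 31337553 to 35838246 counts. Of 10 squamous and basal markers, 9 were in the table and only TP63 and SOX2 averaged at least 1 CPM, with a summed 11.9 to 12.9 unscaled CPM in PPM1G shRNA and 22.5 to 25.7 in control libraries. The squamous keratin genes KRT6A and KRT14 were below 1 CPM. NKX2-1 and NAPSA, markers of lung adenocarcinoma, were also present, with a list sum of 142 to 155 CPM in PPM1G shRNA and 105 to 118 CPM in control libraries, while SFTPC was at 0 in every library. NAPSA had 21.8 ± 0.40 scaled CPM in PPM1G shRNA and 2.16 ± 0.23 in control libraries (SD, n = 3 each). NKX2-1 had 121 ± 6.5 and 114 ± 7.3 scaled CPM, and its groups overlapped. Of the leukocyte markers only CD68 reached 1 CPM, at a list sum of 571 to 602 CPM in PPM1G shRNA and 1200 to 1260 CPM in control libraries. The fibroblast list, nearly all COL1A1, summed to 367 to 374 CPM in PPM1G shRNA and 153 to 170 CPM in control libraries, and the endothelial list to 3.74 to 4.87 CPM in PPM1G shRNA and 4.9 to 6.97 CPM in control libraries. Genes within these 2 lists moved in opposite directions. COL1A1 and PDGFRB rose and COL1A2 fell (log2 fold changes 1.155, 1.26 and -0.69). PECAM1 fell and VWF and KDR rose (-2.30, 2.29 and 1.74). The epithelial list summed to 683 to 697 CPM in PPM1G shRNA and 617 to 673 CPM in control libraries. Of its 6 genes EPCAM, KRT8, KRT18 and CLDN4 averaged at least 1 CPM, while CDH1 and KRT19 averaged 0.31 and 0.07 unscaled CPM. All list sums are of unscaled CPM. The part of these shifts in the results below was not tested.

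The ZNF genes as a whole took a larger share of the transcripts in the PPM1G shRNA libraries. The 293 members held 1.43%, 1.43% and 1.44% of all counts in the PPM1G shRNA libraries, against 0.876%, 0.879% and 0.863% in the control libraries. The level of the median member was 28.8, 29.3 and 28.7 CPM in the PPM1G shRNA libraries and 19.3, 18.5 and 19.4 CPM in the control libraries. Every PPM1G shRNA library lay above every control library by both measures. Without spike-in values these are shares of each library, and in bulk RNA fewer cells of a type and less RNA per cell cannot be told apart.

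Of the 293 members, all of which entered the test, 230 rose and 40 fell at an adjusted p under 0.05, and 23 did not pass. The background was high: of all 13060 genes tested, 82.9% passed, 41.5% as rises and 41.3% as falls. Of the members 92.2% passed in either direction, 78.5% as rises and 13.7% as falls. The median log2 fold change was 0.68 over the members, with an interquartile range of 0.20 to 1.12, and 0.01 over all genes tested. At 10 CPM or more, 87.9% of the 9788 genes passed, 43% as rises and 45% as falls, and the 9488 of them outside the ZNF name had a median of -0.03. A change of at least 2-fold was called for 96 rising and 9 falling members, against a background of 11.8% and 12.4% of all genes, and of 8.47% and 10.7% of genes at 10 CPM or more. Among members, 229 had all PPM1G shRNA libraries above all control libraries and 41 had them below, while the groups did not overlap, in either direction, for 83.7% of all genes and 88.3% of those at 10 CPM or more.

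**Figure D1:**
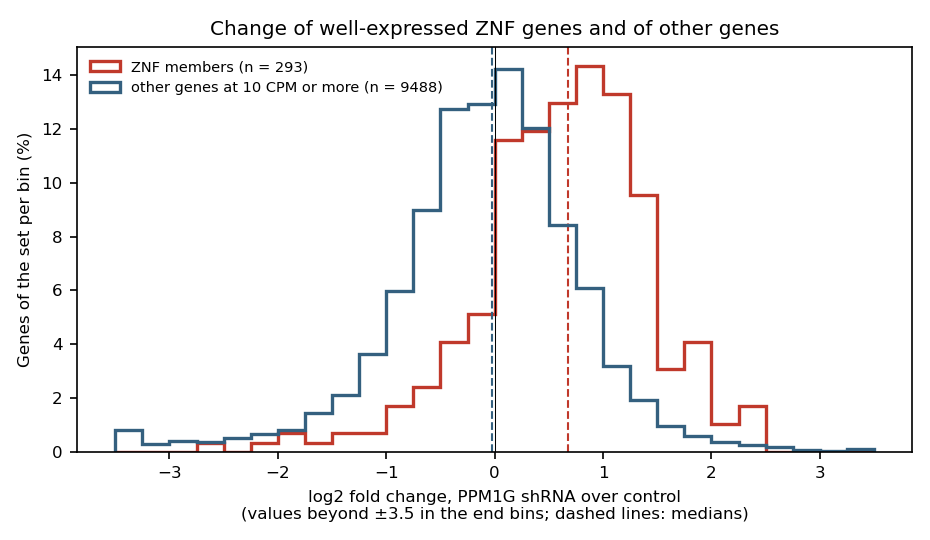
Distribution of the log2 fold change (x axis, PPM1G shRNA over control) for the 293 ZNF members and for the 9488 other genes at 10 CPM or more, as the percentage of each set per bin (y axis). Dashed lines mark the medians, 0.68 for the members and -0.03 for the other genes, and values beyond the axis range are collected in the end bins.

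The choice of members by a pooled level let some genes in through the higher group alone. In both groups 231 members averaged at least 10 CPM, and of these 177 rose and 31 fell, with a median log2 fold change of 0.60. The other 53 low in control and 9 low in PPM1G shRNA had to differ to be included. Just inside the limit were ZNF747, ZNF493 and ZNF32 at 10.02, 10.05 and 10.06 unscaled CPM, with log2 fold changes of 0.75, 0.22 and 0.22. Just outside were ZNF69, ZNF514 and ZNF230 at 9.81, 9.84 and 9.91 CPM, with -0.10, 0.25 and 0.65. Of the 141 other ZNF genes tested below the limit, 79 rose and 30 fell, and their median was 0.48. Of the 10 left-out genes 9 rose and ZNF799 did not pass, with the largest rise in ZNF844 at 228 ± 3.9 CPM in PPM1G shRNA and 27.3 ± 1.0 CPM in control libraries (SD, n = 3 each).

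Members spanned 10.02 to 260.4 unscaled CPM with a median of 24.0, and 111 lay under 20 CPM. Replicates were close: the median SD was 3.72% of the mean in PPM1G shRNA and 5.13% in control libraries. Rises outnumbered falls at every level. Between 10 and 15 CPM 48 of 65 members rose and 8 fell, between 15 and 20 CPM 31 of 46 rose and 11 fell, and at 100 CPM or more 19 of 21 rose and 2 fell. Small changes were common, with 112 members changed by under 1.5-fold, 89 of which still passed the test.

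The 10 members with the largest rise were ZNF14, ZNF627, ZNF763, ZNF468, ZNF888, ZNF420, ZNF441, ZNF436, ZNF79 and ZNF416. Except for ZNF436 on chromosome 1 and ZNF79 on chromosome 9 they lie on chromosome 19, and a KRAB pattern was found in all but ZNF79. Of the 10, ZNF14, ZNF763, ZNF888, ZNF420, ZNF79 and ZNF416 averaged under 10 CPM in control libraries, so they are members only through the PPM1G shRNA libraries and had to differ. ZNF14, a KRAB protein with 17 finger patterns (chr19:19710472-19733112, GRCh38.p14), had 26.2, 27.6 and 26.2 CPM in PPM1G shRNA libraries, against 4.96, 4.14 and 5.22 CPM in control libraries. The 3 PPM1G shRNA libraries were alike and all well above the control libraries, a 5.58-fold difference (log2 2.48, SE 0.09, adjusted p = 3.17e-22, edgeR's quasi-likelihood test). ZNF627, a KRAB protein with 11 fingers (chr19:11597483-11619161), had 83.3, 82.2 and 82.1 CPM in PPM1G shRNA and 15.1, 15.7 and 16.5 CPM in control libraries. ZNF468 reached the highest level of the 10, with 124.9, 121.1 and 121.9 CPM in PPM1G shRNA and 25, 23.1 and 23.8 CPM in control libraries. In both genes the libraries of a group sat within a narrow band and the groups were far apart. However, ZNF468 shares at least 20% of its 31-base words with other genes, so its reads are uncertain. ZNF763 had 17.5, 17.2 and 19.8 CPM in PPM1G shRNA and 2.95, 3.67 and 3.89 CPM in control libraries, but 62.3% of its 31-base words occur in other genes and it overlaps ZNF69, so its reads are uncertain. The same holds to a lesser degree for ZNF888, with 37.7% of its words shared. ZNF441 (chr19:11767000-11784078), with 14 fingers, had 52.3, 51.1 and 52.0 CPM in PPM1G shRNA and 12.8, 13.6 and 11.99 CPM in control libraries, and shares 3.01% of its words.

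The 10 members with the largest fall were ZNF367, ZNF114, ZNF681, ZNF107, ZNF385D, ZNF85, ZNF511, ZNF736, ZNF680 and ZNF718. Of these, ZNF367, ZNF114, ZNF681, ZNF107, ZNF85 and ZNF736 averaged under 10 CPM in PPM1G shRNA libraries, so they are members only through the control libraries and had to differ. ZNF367, a protein of 2 finger patterns without a KRAB domain (chr9:96385941-96418370), had 6.49, 7.02 and 5.95 CPM in PPM1G shRNA libraries, against 40.5, 40.3 and 41.7 CPM in control libraries. All PPM1G shRNA libraries were low, and the gene fell by 2.65 on the log2 scale (SE 0.08, adjusted p = 3.86e-25, edgeR's quasi-likelihood test), the largest change of any member. ZNF114, a KRAB protein with few fingers, had 4.79, 5.05 and 5.04 CPM in PPM1G shRNA and 22.0, 23.2 and 21.6 CPM in control libraries. ZNF681 had 4.54, 4.51 and 5.01 CPM in PPM1G shRNA and 18.3, 19.8 and 16.8 CPM in control libraries. ZNF107 had 9.09, 6.89 and 7.51 CPM in PPM1G shRNA and 26.7, 27.5 and 25.02 CPM in control libraries. In each of these genes the groups were separated by more than their spread. ZNF85 had 10.5, 10.4 and 8.54 CPM in PPM1G shRNA and 26.3, 25.6 and 26.2 CPM in control libraries, and ZNF680 had 12.7, 12.1 and 12.1 CPM in PPM1G shRNA and 25.7, 25.3 and 23.8 CPM in control libraries. ZNF511 overlaps TUBGCP2 and shares 48.6% of its words with other genes, which leaves its fall by 1.38 uncertain. ZNF718 overlaps 15 other RefSeq genes, 6 of them coding, and ZNF681 overlaps 2, 1 of them coding, so their reads are uncertain as well. Adjusted p-values of these 20 genes ran from 1.1e-29 to 6.4e-13 in edgeR's test.

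**Figure D2:**
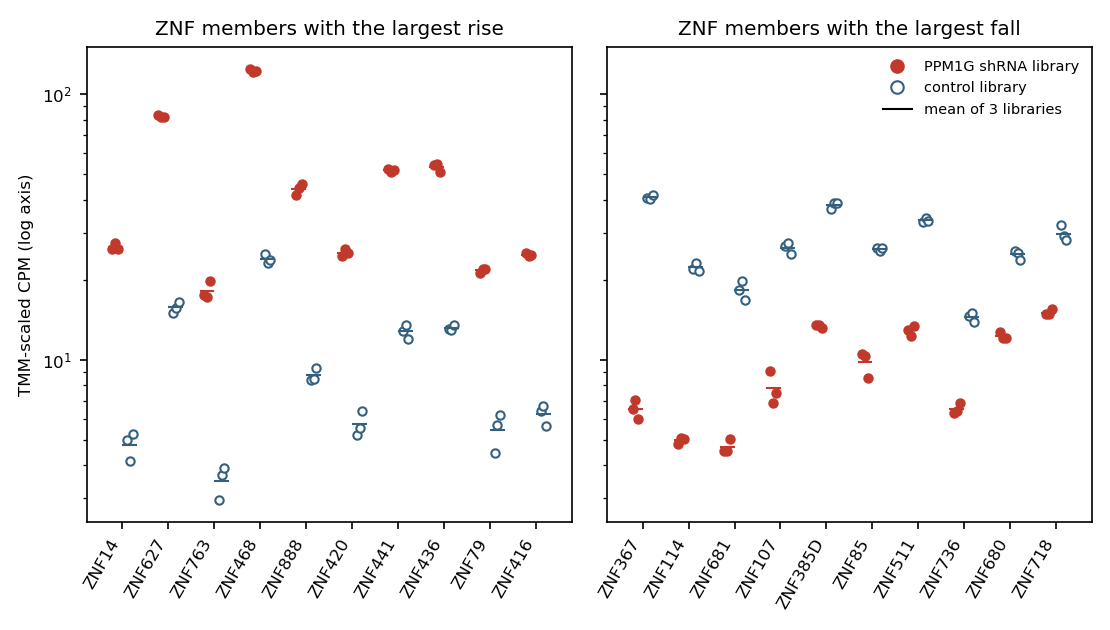
TMM-scaled CPM on a log axis (y) of the 20 members with the strongest changes, rises left and falls right (x), with filled points for the 3 PPM1G shRNA libraries, open points for the 3 control libraries and a bar for each mean. The groups do not overlap for any of the 20 genes, for example ZNF14, which averaged 26.7 CPM in PPM1G shRNA and 4.77 CPM in control libraries, and ZNF367, which averaged 6.49 CPM in PPM1G shRNA and 40.8 CPM in control libraries.

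The stretches of 120 bases upstream of the start are shown for members at both ends of the range, because 4 of the falling genes have start regions that resemble each other. They are RefSeq sequences on GRCh38.p14, read 5′ to 3′ on the gene's strand. Capitals mark GGGCGG (the SP1 box), CCAAT (the box bound by NF-Y), CCGGAAG (the ETS core) and TTTGGCG or TTTCCCG (E2F boxes), on either strand. In ZNF85 and ZNF681 an SP1 box runs into an ETS core.
ZNF107: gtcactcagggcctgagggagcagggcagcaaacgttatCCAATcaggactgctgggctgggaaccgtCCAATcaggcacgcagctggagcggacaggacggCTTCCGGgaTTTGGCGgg
ZNF680: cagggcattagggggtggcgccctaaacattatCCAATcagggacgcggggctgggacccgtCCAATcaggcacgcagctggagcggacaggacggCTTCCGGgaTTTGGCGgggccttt
ZNF85: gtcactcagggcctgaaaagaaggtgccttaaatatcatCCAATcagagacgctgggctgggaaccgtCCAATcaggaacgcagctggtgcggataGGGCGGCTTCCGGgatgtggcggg
ZNF681: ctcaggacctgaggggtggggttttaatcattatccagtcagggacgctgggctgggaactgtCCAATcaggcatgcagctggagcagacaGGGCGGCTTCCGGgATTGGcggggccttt
ZNF367: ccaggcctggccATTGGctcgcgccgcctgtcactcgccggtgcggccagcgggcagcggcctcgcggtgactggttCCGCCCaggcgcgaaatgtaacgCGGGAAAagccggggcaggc
ZNF14: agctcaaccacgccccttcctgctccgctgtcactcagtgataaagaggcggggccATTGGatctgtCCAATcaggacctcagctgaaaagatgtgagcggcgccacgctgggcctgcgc
ZNF441: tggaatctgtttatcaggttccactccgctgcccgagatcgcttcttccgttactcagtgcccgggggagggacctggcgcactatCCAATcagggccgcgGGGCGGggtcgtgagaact
ZNF627: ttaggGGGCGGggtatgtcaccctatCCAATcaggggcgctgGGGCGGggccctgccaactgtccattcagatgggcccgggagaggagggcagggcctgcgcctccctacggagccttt
In order, these are chr7:64666013-64666132 (plus strand), chr7:64563072-64563191 (minus), chr19:20923131-20923250 (plus), chr19:23758892-23759011 (minus), chr9:96418371-96418490 (minus), chr19:19733113-19733232 (minus), chr19:11766880-11766999 (plus) and chr19:11597363-11597482 (plus). The first 5 genes fell and the last 3 rose.

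The stretches of ZNF107, ZNF680, ZNF85 and ZNF681 were 75.4% to 84.4% identical in pairwise global alignment, whereas the other 130 pairs among the 17 stretches read for the largest changes ranged from 32.2% to 57.4%. Words common to all 4 stretches, picked after the values were seen, were searched on both strands of the whole promoter window, 250 bases before to 50 after the start, in the 251 members with a RefSeq promoter. The longest, CGGCTTCCGGGAT, holds the ETS core and occurred in 10 members and in 0.0732% of all 27305 promoters. The 10 include the 4 genes the word was taken from, whose fall was fixed by that choice, and of the other 6 members 4 rose, 1 fell and 1 did not pass. The longest with a CCAAT box, GTCCAATCAGG, occurred in 19 members and in 0.227% of all promoters. All 19 had a KRAB pattern, 13 lie on chromosome 19 and 4 on chromosome 7. The 19 include the same 4 genes, and of the other 15 members 9 rose, 4 fell and 2 did not pass. ZNF14, the member with the largest rise, holds the second word as well.

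The simple motifs were spread over rising and falling members. CCGGAAG was found in 45.8% of member promoters, 18.9% of those of all genes tested and 10.7% of all promoters. CCAAT was found in 44.6% of members and 36.9% of genes tested, GGGCGG in 68.1% and 69.2%, and ACTACAA, the core bound by ZNF143, in 7.97% and 3.82%. CACGTG, the E-box, was found in 3.98% of members and 9.92% of genes tested, TGACGT in 12.4% and 11.4%, and TTTCCCG in 5.18% and 6.76%. TTTGGCG was found in 5.98% of members and 2.94% of genes tested, and in 1.92% of all promoters. It was present in 7 of 195 rising members, or 3.59%, and in 6 of 35 falling members, or 17.1%. ZNF107 and ZNF680, whose promoters are printed above, both hold it, and their stretches are 78.6% identical. Shares of rising and falling members were 44.1% and 54.3% for CCGGAAG, 43.6% and 48.6% for CCAAT, and 69.2% and 62.9% for GGGCGG. They were 8.21% and 5.71% for ACTACAA, 3.59% and 8.57% for CACGTG, 11.3% and 14.3% for TGACGT, and 6.15% and 2.86% for TTTCCCG. No split was tested. A match is a description of the letters, not a site or a cause.

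By position, the 117 members on chromosome 19 had a median log2 fold change of 0.87, with 90 rising and 15 falling, and the 176 on other chromosomes had 0.59, with 140 rising and 25 falling. Of the other 522 genes of chromosome 19 at 10 CPM or more, 35.2% rose, with a median of -0.21. Genomic clusters were formed from neighbouring members within 250 kb of each other. There were 40 such clusters with 180 members, and in 26 of them every member had a positive log2 fold change. Many of these clusters are pairs. Of all 293 members 245 had a positive value, clustered or not, against 6641 of all 13060 genes tested. Whether clusters exceed the share of the members was not tested. The SD of the log2 fold change was 0.78 over clustered members and 0.64 within clusters.

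The largest cluster, ZNF614 to ZNF331 (chr19:52013324-53580269), held 23 members, all of which rose, with a median of 1.03. Within it, ZNF160 had 113.6, 115.9 and 113.4 CPM in PPM1G shRNA and 32.7, 31.2 and 32.6 CPM in control libraries, whereas ZNF83 had 91.2, 90.3 and 84.8 CPM in PPM1G shRNA and 74.6, 80.1 and 87.5 CPM in control libraries, and its groups overlapped. The cluster's members thus differed among themselves from 0.14 to 2.36 on the log2 scale. In ZNF264 to ZNF587 (chr19:57191500-57865117) 12 of 13 rose and ZNF587 fell, with a median of 1.40. In ZNF653 to ZNF625 (chr19:11483429-12156734), which contains ZNF627, ZNF441 and ZNF763, all 7 rose with a median of 1.26. On chromosome 7, all 6 members of ZNF398 to ZNF746 (chr7:149126408-149497809) rose with a median of 1.14.

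In 2 of the 13 clusters with at least 5 members the median was below 0. In ZNF85 to ZNF100 (chr19:20923251-21767579) 4 of 7 members fell and 2 rose, with a median of -0.22. In ZNF727 to ZNF138 (chr7:64045434-64860823) 4 of 6 fell and 2 rose, with a median of -0.72. Neighbours there differed in direction: ZNF679 had 15.5, 16.8 and 17.1 CPM in PPM1G shRNA and 6.07, 4.52 and 5.05 CPM in control libraries, while ZNF107, ZNF680 and ZNF736 fell. ZNF429 in the first of these had 34.4, 34.6 and 35.3 CPM in PPM1G shRNA and 20.6, 20.5 and 19.9 CPM in control libraries, beside the fall of ZNF85. ZNF679, ZNF736, ZNF429 and ZNF85 share 30.7%, 24.8%, 26.3% and 26.8% of their 31-base words with other genes, so their reads are uncertain. In wider windows drawn after the values were seen, there were 5 rises and 6 falls among 14 members between 15 and 25 Mb of chromosome 19, and 2 rises and 5 falls among 7 between 60 and 70 Mb of chromosome 7. The other 15 members of chromosome 7 all rose, with a median of 1.13. ZNF160, ZNF83, ZNF587, ZNF679 and ZNF429 are named here for their clusters and were chosen after their values were seen.

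**Figure D3:**
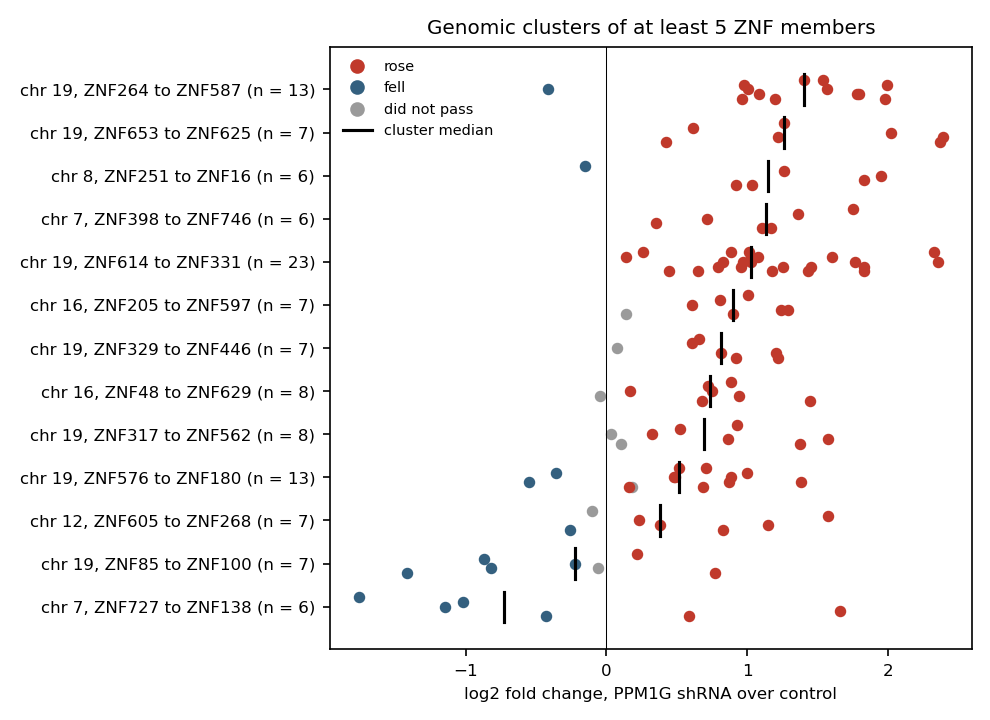
Log2 fold change (x axis, PPM1G shRNA over control) of each member in the 13 genomic clusters with at least 5 members (rows), coloured by whether the gene rose, fell or did not pass, with a bar at each cluster's median. Medians range from 1.40 in the ZNF264 to ZNF587 cluster to -0.72 in the ZNF727 to ZNF138 cluster.

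By domain, the 156 members with a KRAB pattern in their GENCODE protein had a median log2 fold change of 0.88, with 127 rising and 19 falling. The 136 without one had 0.48, with 102 rising and 21 falling; the pattern misses some KRAB domains. On chromosome 19 the KRAB members had a median of 0.97, and on other chromosomes 0.72. All 11 members that matched the SCAN pattern rose, with a median of 1.21. Rises made up 78.5% of all members and 41.5% of all genes tested. This pattern is short and can miss SCAN domains as well, so the count does not cover every SCAN member. ZNF496, which fell (log2 fold change -0.36), and ZNF174, which did not pass, did not match it. The count thus does not show that all SCAN members rose. The median member had 10 fingers. The 7 members without a finger pattern had a median log2 fold change of 0.50, with 5 rising and 1 falling, and those with 1 to 4 fingers 0.24, with 27 of 44 rising and 13 falling. With 5 to 9 fingers the median was 0.67, with 69 of 81 rising and 6 falling, with 10 to 14 fingers 0.83, with 74 of 96 rising and 14 falling, and with at least 15 fingers 0.78, with 54 of 64 rising and 6 falling. The medians thus did not follow finger number steadily. Across members, which share libraries and often sequence, finger number correlated weakly with the log2 fold change (Pearson's r = 0.16, Spearman's rho = 0.20, n = 292 genes with a protein), and level, length, GC content and shared sequence gave r between -0.07 and 0.06.

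**Figure D4:**
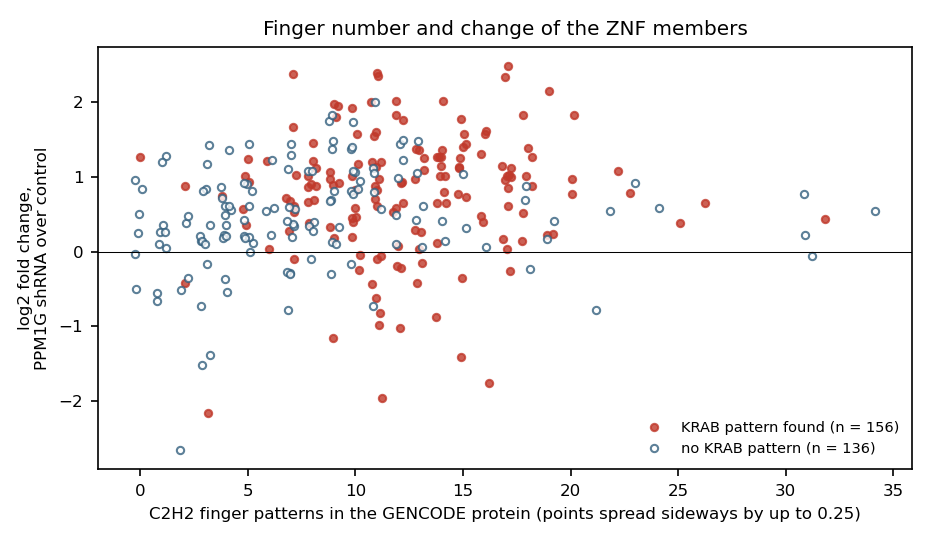
Log2 fold change (y axis, PPM1G shRNA over control) of each member against the number of C2H2 finger patterns in its GENCODE protein (x axis), with filled points for members with a KRAB pattern and open points for those without. The deepest fall, ZNF367 at -2.65, has 2 fingers and the largest rise, ZNF14 at 2.48, has 17.

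Reads from duplicated genes can be assigned to the wrong copy, so members were also counted by shared sequence. Of 128 members with under 5% of their 31-base words in other genes, 105 rose and 15 fell, and of 79 with at least 20% shared, 63 rose and 9 fell. Rises were thus 82.0% and 79.7% of these sets, near the 78.5% of all members, against 41.5% of all genes tested. Named members with at least 20% shared include ZNF747 at 100%, ZNF587 at 47.7%, ZNF22 at 43.6%, ZNF395 at 42.1% and ZNF91 at 25.1%. ZNF468, ZNF532, ZNF207, ZNF365, ZNF493, ZNF32 and ZNF254 also share at least 20%. The single values of all these members carry the same uncertainty. Of 135 members overlapping no other RefSeq gene, 113 rose, or 83.7%, and 12 fell. The strand setting of the counts is not given in the sources used here, so a member and an antisense partner cannot be told apart.

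Zinc finger genes with other names also rose more often than they fell. Of 82 genes at 10 CPM or more with at least 5 finger patterns and no ZNF name, 68 rose and 9 fell, with a median of 0.56. Of the 32 ZBTB genes at that level, which pair fingers with a BTB domain, 27 rose and 2 fell, and of 27 genes named ZFP, ZKSCAN or ZSCAN 26 rose and 1 fell. Of all genes tested at 10 CPM or more, 43% rose and 45% fell. The 82 genes were picked by finger number, so they can include genes of the other sets, which are not separate evidence.

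Members with known roles were described in 5 short lists, made by hand and not complete, that hold 40 of the 293. Their counts stand against rises in 78.5% of all members and 41.5% of all genes tested, and no list was tested for a difference from the other members. Among the 13 in chromatin complexes 11 rose and 2 fell, with a median of 0.69. ZNF592 and ZNF532, partners of ZMYND8 in a chromatin-reading complex, had log2 fold changes of 1.08 and 1.07. ZNF217, an oncogene product bound to the CoREST co-repressor, had 255.8, 252.2 and 259.6 CPM in PPM1G shRNA and 121.9, 126.4 and 116.4 CPM in control libraries. ZNF827, which brings the NuRD complex to telomeres, had 122.5, 109.1 and 118.2 CPM in PPM1G shRNA and 57.6, 58.4 and 51.3 CPM in control libraries. The groups were apart in both, and both levels were about 2-fold higher in PPM1G shRNA libraries.

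Among the 10 binders of promoters and enhancers 9 rose and ZNF143 fell by 0.27 on the log2 scale, with a list median of 0.38. ZNF263 and ZNF131 had log2 fold changes of 0.81 and 0.62, and ZNF148, which binds GC-rich promoters, 0.56. ZNF24, a SCAN protein that represses VEGFA, was the member with the highest mean CPM, with 307.4, 297.7 and 300.5 CPM in PPM1G shRNA and 220.4, 218.2 and 208.8 CPM in control libraries. Its groups were apart by far more than their spread although the rise was 0.48 on the log2 scale (SE 0.03, adjusted p = 8.60e-16, edgeR's quasi-likelihood test).

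The 4 members on the list of KRAB proteins studied on transposable elements or in H3K9 methylation rose, with a median of 0.63. Of the list's tested genes under the limit of 10 CPM, ZNF93, ZNF649 and ZNF765 rose by 0.62, 1.20 and 0.43 on the log2 scale, and ZNF248 fell by 0.78. ZNF274, which brings SETDB1 to zinc finger genes, had 95.3, 94.0 and 91.9 CPM in PPM1G shRNA and 39.7, 41.7 and 40.4 CPM in control libraries. ZNF10, whose KRAB domain is used in engineered repressors, had 22.9, 22.0 and 21.3 CPM in PPM1G shRNA and 12.6, 12.2 and 12.5 CPM in control libraries. ZNF91, which represses SVA elements, had 50.6, 47.6 and 52.8 CPM in PPM1G shRNA and 36.2, 39.8 and 35.6 CPM in control libraries. For all of these the groups did not overlap, and ZNF141, a LINE binder, had the smallest log2 fold change of the 4, at 0.20.

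Among the 9 members that act on RNA or ribosomes 7 rose and 2 fell, with a median of 0.26. ZNF622, a late maturation factor of the large ribosomal subunit, had 112.1, 116.6 and 117.0 CPM in PPM1G shRNA and 42.0, 43.7 and 43.3 CPM in control libraries. ZNF598, the ubiquitin ligase that marks collided ribosomes, had 29.4, 31.7 and 30.4 CPM in PPM1G shRNA and 44.9, 47.2 and 52.1 CPM in control libraries. ZNF622 was high in every PPM1G shRNA library and ZNF598 low in every one, with log2 fold changes of 1.42 and -0.66. ZNF207, which carries BUB3 to kinetochores, had 157.9, 161.7 and 166.5 CPM in PPM1G shRNA and 234.0, 232.6 and 227.3 CPM in control libraries. It fell by 0.51 on the log2 scale with its groups well apart, and ZNF638, an RNA-binding repressor, rose by 0.38. Of the 4 growth and differentiation members, ZNF367 fell, ZNF395 and ZNF365 rose by 1.20 and 0.25, and ZNF503 did not pass.

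Of the highest members not yet described, ZNF451, a SUMO ligase, had 330.7, 330.3 and 331.7 CPM in PPM1G shRNA and 169.5, 169.3 and 170.4 CPM in control libraries. ZNF462, the member with most fingers at 34, had 283.8, 289.1 and 285.3 CPM in PPM1G shRNA and 199.8, 204.1 and 187.1 CPM in control libraries. Replicates of ZNF451 differed by under 2 CPM, and both genes rose. Per length, ranked on the authors' FPKM, ZNF330 and ZNF622 were high, at 64.2 ± 1.7 and 69.9 ± 1.8 FPKM in PPM1G shRNA and 33.5 ± 2.1 and 24.3 ± 0.56 FPKM in control libraries (SD, n = 3 each). The median member had 6.6 FPKM in PPM1G shRNA and 3.77 FPKM in control libraries.

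The 23 members that did not pass had log2 fold changes between -0.10 and 0.18 and adjusted p-values between 0.0749 and 0.847 in edgeR's test. ZNF22 had 80.9, 89.5 and 90.3 CPM in PPM1G shRNA and 91.1, 89.0 and 82.5 CPM in control libraries. ZNF503 had 39.7, 40.4 and 39.2 CPM in PPM1G shRNA and 41.0, 40.8 and 39.9 CPM in control libraries. ZNF254 had 45.8, 42.2 and 46.5 CPM in PPM1G shRNA and 41.6, 47.0 and 43.0 CPM in control libraries. The groups overlapped in all 3 genes.

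By Pearson correlation of log2 CPM over the 6 libraries, the members most like ZNF14 were ZNF134, ZNF394 and ZNF251, the last with r = 0.999, and those most like ZNF367 were ZNF385D, ZNF185 and ZNF114, at r = 0.999, 0.998 and 0.998. Over 2 groups of 3 libraries, any pair of members with strong changes in the same direction gives r near 1, so these values describe little beyond the difference between the groups.

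A list of 24 tested genes covered the TRIM28 co-repressor, through which KRAB proteins act, and H3K9 methylation more widely. The list is thus wider than the KRAB pathway. Of the 24 genes 15 fell, 5 rose and 4 did not pass, with a median of -0.31, against falls in 41.3% and rises in 41.5% of all genes tested. At 10 CPM or more, 45% of genes fell and 43% rose. SUV39H1, an H3K9 methyltransferase, had 9.03, 6.40 and 6.62 CPM in PPM1G shRNA and 33.0, 35.3 and 34.2 CPM in control libraries. CBX5, which encodes the heterochromatin protein HP1 alpha, had 106.9, 103.7 and 104.7 CPM in PPM1G shRNA and 318.3, 327.4 and 294.0 CPM in control libraries. Both were low in every PPM1G shRNA library, and SUV39H2, CBX1, SUMO2 and HDAC1 fell by 1.52, 0.89, 0.86 and 0.80 on the log2 scale. TRIM28, named for its role, had 171 ± 3.2 CPM in PPM1G shRNA and 256 ± 12.5 CPM in control libraries, and SETDB1, the methyltransferase it recruits, had 64.2 ± 1.1 CPM in PPM1G shRNA and 44.9 ± 0.30 CPM in control libraries (SD, n = 3 each). TRIM28 thus fell and SETDB1 rose, together with MORC3, RESF1, MPHOSPH8 and ATF7IP.

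**Figure D5:**
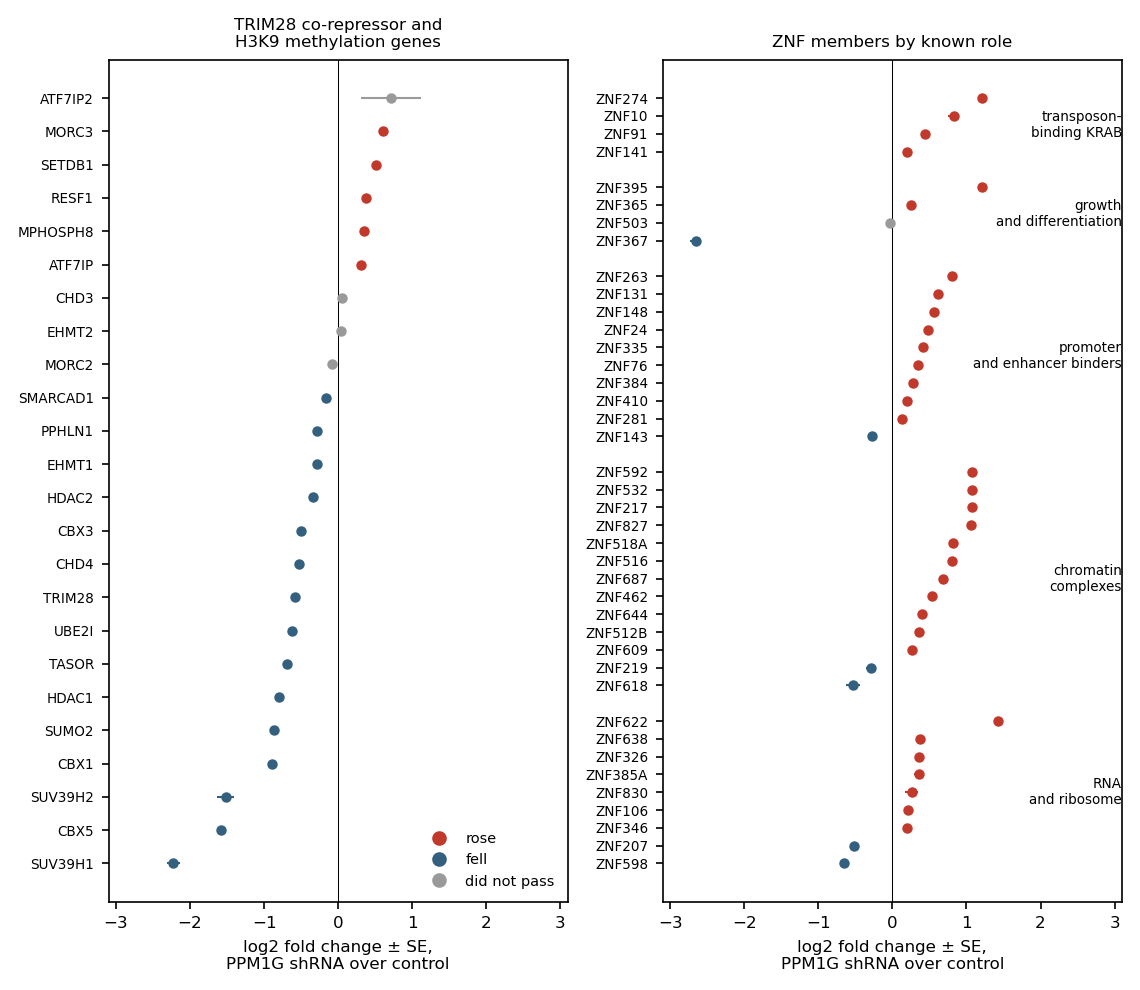
Log2 fold change with its SE (x axes, PPM1G shRNA over control) of the 24 tested genes of the TRIM28 co-repressor and H3K9 methylation list (left) and of the 40 members on the role lists (right), coloured by whether each rose, fell or did not pass. The left panel runs from ATF7IP2, which did not pass, to SUV39H1 at -2.22, and most members on the right lie above 0.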

How the data were processed

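RNA-seq was analysed for 3 PPM1G shRNA and 3 control libraries. The deposited count table holds unnormalized whole-number counts per gene and library, and the deposited FPKM table holds the authors' FPKM for the same genes; the FPKM equal the counts over a fixed gene length and the library's total, to a relative spread of 4.19e-07. The build was GRCh38, per the submitters' processing notes; aligner, counter, annotation and strand setting were not given in the sources used here. Per the labels' protocols, libraries were prepared from total RNA using a SMARTER kit for mRNA.

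Counts were tested with edgeR 4.0.16 in R 4.3.3 (quasi-likelihood F-test, robust, TMM factors, default expression filter at 10 counts) over 13060 genes with group as the only term, Benjamini-Hochberg adjustment over all of them and a threshold of 0.05. SEs are the absolute log2 fold change over the square root of F. Any 2 libraries of a group differed by more than sampling noise (chi-square per degree of freedom 2.69 to 6.44), so no pair was counted as 1 library deposited in duplicate. Totals of 31337553 counts and more left a median biological coefficient of variation of 0.0514 for members.

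Members, lists and tests were chosen with earlier results of these data known. Named members are the 10 largest rises and falls without overlap of libraries, the 6 highest, the 3 least changed, up to 4 per role list and 6 of the co-repressor list by size of change, the 3 genes on each side of the limit, and the 3 genes most like the top rise and fall. Positions and promoters are RefSeq GRCh38.p14 (293 and 251 members matched); domain patterns and 31-base words come from GENCODE release 29 (292 matched). Alternatives were DESeq2 1.42.0, limma 3.58.1 on log2 FPKM with pseudocounts of 1 and 0.1, other scalings and filters, a replicate block, leaving out each library, and other membership limits.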

Additional observations from a re-analysis of the deposited data

How the results depend on the processing

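Members that rose made up 76.5% to 82.6% of the 293 or, with FPKM filtered at 1, 289 members under every alternative fit, with 77.1% in DESeq2. Relative to the median of all genes, which library totals shifted by 0.1, the members' median stayed 0.537 to 0.68 higher. The median itself was 0.72 with upper-quartile factors, 0.78 with library totals only, 0.63 in limma on log2(FPKM + 1), 0.77 with a pseudocount of 0.1 and 0.62 without the FPKM filter. Leaving out 1 library at a time, it ranged from 0.66 to 0.70. It was 0.65 with a membership limit of 5 CPM, 0.70 with the left-out genes put back and 0.73 for members overlapping no other RefSeq gene. Smaller memberships gave fewer calls by construction: 151 rose and 21 fell at a limit of 20 CPM, and, in sets chosen after seeing the data, 105 rose and 15 fell among members sharing under 5% of words and 113 rose and 12 fell among those overlapping no other gene. Co-repressor genes that rose numbered 8 in limma on FPKM without a filter, against 5. Same-numbered libraries did not visibly deviate together (r = 0.033, 0.00054 and 0.0034). The labels do not say whether the numbers pair libraries, and these values cannot exclude it. With the replicate block 230 members rose and 39 fell. Of 800 values of single named genes under 16 alternatives, 784 kept direction and call. The changes of sign were in genes that did not pass. ZNF22 had 0.03002 with upper-quartile factors, 0.09063 with library totals, 0.0002479 with a filter at 1 CPM, 0.08682 with FPKM + 1, 0.08869 with FPKM + 0.1 and -0.05132 to 0.0399 without single libraries. ZNF503 had 0.01068, 0.07133, 0.06591 and 0.07061 with upper-quartile factors, totals, FPKM + 1 and FPKM + 0.1. ZNF254 had -0.003976 to 0.08183 without single libraries and passed only with library totals (0.131). The causes were not tested. Precision follows depth: the median SE was 0.09 for members at 10 to 15 CPM and 0.04 at 100 CPM or more.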
